A study of Mus musculus with 12 samples.

Results

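The 9 mouse genes H2-Aa, H2-Ab1, H2-Eb1, H2-DMa, H2-DMb1, H2-Oa, H2-Ob, Cd74 and Ciita form the core of antigen presentation on major histocompatibility complex (MHC) class II molecules, and their levels were followed across 12 mouse liver samples on one-colour Agilent arrays. Probes were taken where the array's gene name, or the current symbol reached through the probe's RefSeq accession, was one of these 9, which gave 14 of 41174 probes. The array names 28784 genes or transcripts in all. H2-Ab1 had 4 probes, H2-Aa and H2-Oa had 2 each, and the remaining 6 genes had 1 each. Ciita stands on the array under its older name C2ta.

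The study asked what human glucocorticoid receptor (GR) beta, a splice form that does not bind glucocorticoids, does in a liver without the mouse receptor. All animals were male C57BL/6 mice aged 3 months with a knockout of GR in the liver, and the same knockout is therefore present in the controls. Of the 12 samples, 4 came from mice given an adeno-associated virus (AAV) carrying human GR beta (AAV-hGRB), 4 from mice given the virus with green fluorescent protein (AAV-GFP) and 4 from mice given phosphate-buffered saline (PBS). The sources used here do not give the promoter in the vectors, the driver of the knockout, the vector dose or the time after injection.

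Samples carry replicate numbers, but nothing says that each came from its own animal, and the p-values then rest on a spread between samples that may be technical. Mouse Nr3c1, the GR gene, had a mean log2 level of 0.40 with AAV-hGRB, 0.34 with AAV-GFP and 0.37 with PBS, on 4 arrays each. No wild-type group was there to set it against, and the probe is not stated to lie in the deleted part, so it checks neither the knockout nor the transgene.

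MHC class II molecules carry peptides of ingested proteins to the cell surface, where CD4+ T cells read them. An alpha chain (H2-Aa) and a beta chain (H2-Ab1, H2-Eb1) pair in the endoplasmic reticulum around the invariant chain encoded by Cd74, which blocks the groove and steers the complex to endosomes. There H2-DM (H2-DMa, H2-DMb1) takes out the last fragment of the invariant chain and helps peptides to bind, and H2-O (H2-Oa, H2-Ob) restrains H2-DM. Ciita encodes the class II transactivator, the coactivator that switches the whole set on. In liver, class II is known from dendritic cells, B cells, Kupffer cells and sinusoidal endothelium, and hepatocytes have little of it at rest.

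The H2-Ab1 gene is read at several places on the array, and the letters of 3 of its probes are shown because the probes did not rank the arrays alike. Probe A_51_P215242 lies at chr17:32342603-32342662 and probe A_51_P215237 at chr17:32345268-32345327, both on the plus strand of mouse build mm7. The place of A_52_P570717 is not given in the files. It shares 31 bases with A_51_P215242 apart from 2 letters, T5A and T20A, counted from the first base of A_51_P215242 and with that probe's base first. These letters are the capitals below, and the third probe has none.
H2-Ab1 A_51_P215242: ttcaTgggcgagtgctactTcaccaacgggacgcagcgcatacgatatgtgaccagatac
H2-Ab1 A_52_P570717: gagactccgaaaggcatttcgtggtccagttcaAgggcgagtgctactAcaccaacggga
H2-Ab1 A_51_P215237: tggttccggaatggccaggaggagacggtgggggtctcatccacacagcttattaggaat

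Promoters are shown because class II genes are known to share a control region, in which RFX proteins bind the X box and the factor NF-Y binds the Y box. RefSeq promoters of build GRCm38.p6 (250 bases before to 50 after the start) were at hand for 6 of the 9 genes, H2-Aa, H2-Eb1, H2-DMa, H2-DMb1, H2-Oa and H2-Ob. In 5 of these 6 genes the letters GNAAC, an X box core, were followed 15 to 35 bases later on the gene's strand by TGATTGG, which holds the Y box core CCAAT read on the opposite strand. That arrangement stood in 82 of 32851 promoters (0.25%), and TGATTGG alone in 4.01%. The pair of motifs was written down after the promoters had been read, so the count is a description. The spacing was 26 bases in H2-Aa, H2-DMb1 and H2-Oa, 25 in H2-Eb1 and 23 in H2-Ob, and both promoters listed for H2-DMa lacked the pair. Windows of 87 bases are shown for an alpha chain, a beta chain and an H2-DM chain that hold the pair, written along the gene's strand with GNAAC and TGATTGG in capitals. They lie at chr17:34287847-34287933 on the minus strand for H2-Aa, and at chr17:34305746-34305832 for H2-Eb1 and chr17:34153068-34153154 for H2-DMb1 on the plus strand.
H2-Aa: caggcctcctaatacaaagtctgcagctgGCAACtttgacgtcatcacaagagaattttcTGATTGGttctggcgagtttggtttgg
H2-Eb1: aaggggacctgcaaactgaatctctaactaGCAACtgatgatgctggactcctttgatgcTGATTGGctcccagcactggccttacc
H2-DMb1: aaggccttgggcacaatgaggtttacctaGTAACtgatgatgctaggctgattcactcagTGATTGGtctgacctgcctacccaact

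Other letters were searched on both strands of the same promoters. The interferon-stimulated response element stood in 3.44% of all promoters, and it was in these windows for none of the 6 genes. CCAAT and CCNNGNNAC stood in 37.4% and 47.4% of all promoters. A letter match is neither a site nor a cause, and an absent match says nothing of the factor.

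A level below is the log2 processed intensity of a probe minus the 75th percentile of its array, so that 0 is the 75th percentile and 1 unit is a doubling. Levels are compared between arrays for 1 probe, because probes differ in how well they hybridise. Signal strength serves only to choose which probe or marker is named, and a summed level of several probes is weighted toward those of strong signal. That percentile lay between 209 and 598 intensity units, lowest on AAV-GFP replicate 3. A probe was tested where it was well above background on at least 4 arrays, as 26593 of 41174 probes were, among them 13 of the 14 probes and 8 of the 9 genes described here. The brightest probe stands for a gene unless another is named. A change is a difference of group means on the log2 scale from 1 limma fit over the 12 arrays, and the threshold is an adjusted p of 0.05 over all probes tested.

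No class II transcript differed between groups past the threshold. Of the 8 genes tested, 0 passed the threshold in AAV-hGRB against AAV-GFP, against a background of 0% of all probes tested. In AAV-GFP against PBS the count was likewise 0 of 8 genes (background 0%). In AAV-hGRB against PBS it was 0 of 8 (background 0%). In each comparison 4 of the 8 changes were positive and 4 negative. Their medians were 0.04, -0.01 and -0.01 in that order of comparisons, beside -0.05, 0.00 and -0.06 over all probes tested. At an unadjusted p of 0.05, 892, 448 and 1553 of all probes were called (3.35%, 1.68% and 5.84%), and 0, 1 and 0 of the 13 probes of these genes. AAV-GFP and PBS arrays each serve in 2 of the comparisons, which are therefore not independent.

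**Figure D1:**
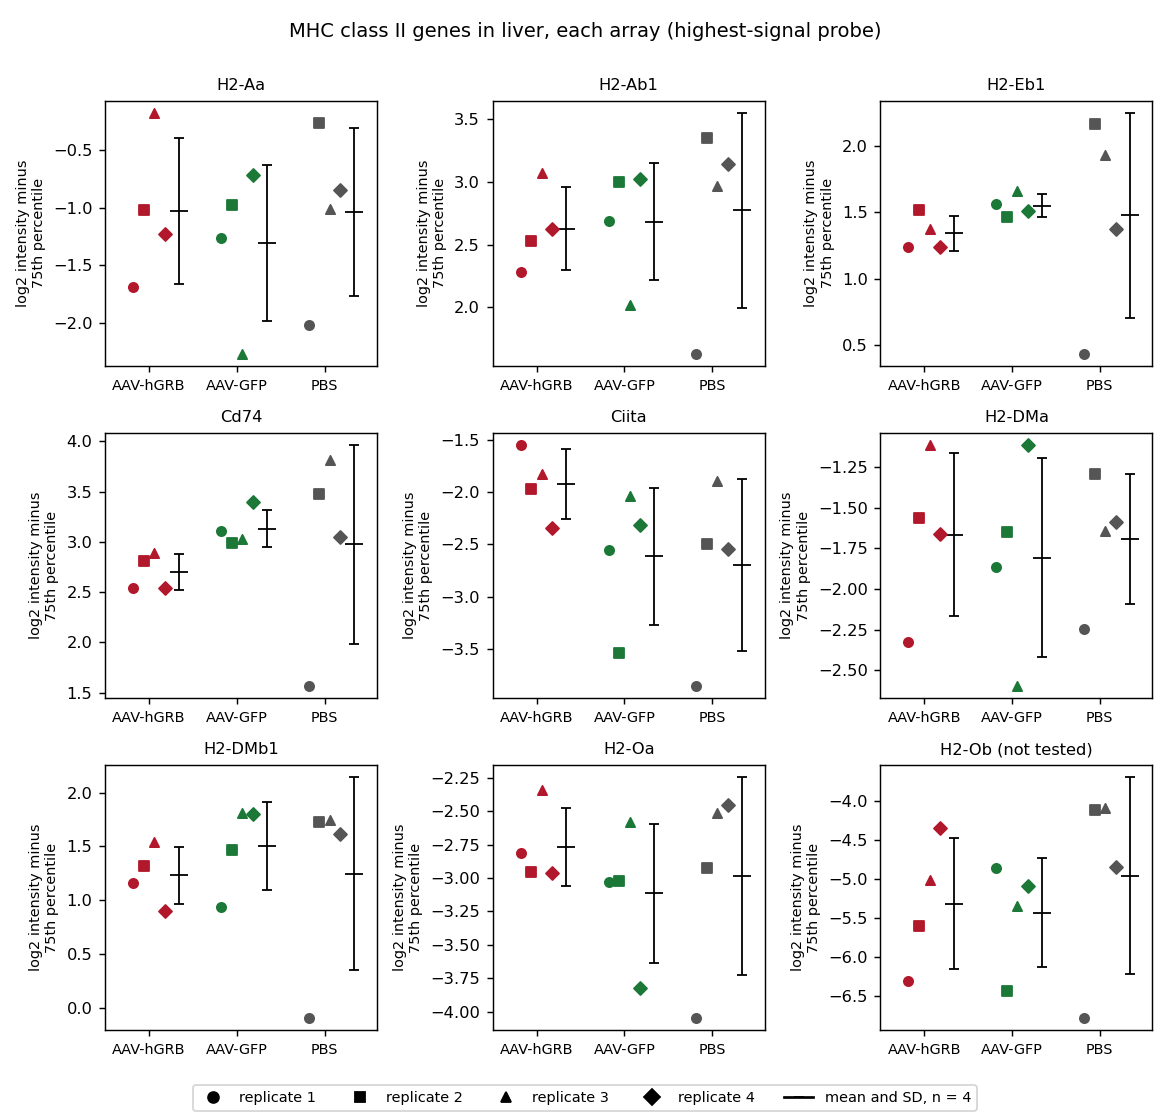
Level of each gene on each array (log2 intensity minus the 75th percentile of the array, brightest probe), with AAV-hGRB in red, AAV-GFP in green and PBS in grey, a marker shape for each replicate number, and the mean with SD of 4 arrays beside the points. PBS replicate 1 is the lowest point for 7 of the 9 genes, H2-Aa and H2-DMa being lowest on AAV-GFP replicate 3. For H2-Ob, 1 of the 7, that point is not well above background and has no rank. Replicate numbers name the arrays, and no pairing by number was assumed.

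H2-Aa, the alpha chain of the I-A molecule, had levels of -1.69, -1.02, -0.18 and -1.23 on AAV-hGRB replicates 1 to 4. The AAV-GFP arrays had -1.26, -0.97, -2.27 and -0.72, and the PBS arrays -2.01, -0.26, -1.01 and -0.85. The 3 groups overlapped, with AAV-hGRB replicate 3 the highest of the 12 arrays and AAV-GFP replicate 3 the lowest. The change was 0.28 (SE 0.44, 95% interval -0.68 to 1.23) against AAV-GFP and 0.01 against PBS, and it was -0.27 for AAV-GFP against PBS. The second H2-Aa probe gave 0.26, 0.00 and -0.26 in the same order.

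A change of H2-Aa between arrays of 1 slide depended on the slide. Slides 5 and 6 each held an array of all 3 groups. AAV-hGRB minus AAV-GFP was -0.72 within slide 5 and 2.09 within slide 6, where the AAV-GFP array is replicate 3. Without that replicate the change over all arrays was -0.04, of the opposite sign.

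H2-Ab1, the beta chain that pairs with H2-Aa, had levels of 2.28, 2.53, 3.07 and 2.62 on the AAV-hGRB arrays. It had 2.69, 3.00, 2.02 and 3.02 on the AAV-GFP arrays and 1.63, 3.35, 2.96 and 3.14 on the PBS arrays. On the brightest probe the highest and the lowest of the 12 were both PBS arrays. The change was -0.06 (SE 0.37, 95% interval -0.86 to 0.74) in AAV-hGRB against AAV-GFP and -0.15 in AAV-hGRB against PBS. Between AAV-GFP and PBS it was -0.09.

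H2-Eb1, the beta chain of the I-E molecule, was the steadiest of the genes in both virus groups. It stood at 1.24, 1.52, 1.37 and 1.24 in AAV-hGRB, at 1.57, 1.47, 1.67 and 1.51 in AAV-GFP, and at 0.43, 2.17, 1.94 and 1.38 in PBS. The SD of its level was 0.13 with AAV-hGRB, 0.09 with AAV-GFP and 0.78 with PBS. The change was -0.21 (SE 0.31) for AAV-hGRB against AAV-GFP and -0.14 for AAV-hGRB against PBS, and 0.07 between AAV-GFP and PBS. H2-Ea, the alpha chain that I-E needs and that C57BL/6 mice are known not to make, was well above background on 0 of 12 arrays.

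Cd74, the invariant chain, was the 1 gene of the 8 whose AAV-hGRB and AAV-GFP arrays did not overlap, where 2.98% of all probes tested do not overlap in either direction and 1.94% do not in the direction of lower AAV-hGRB. Its levels were 2.55, 2.81, 2.89 and 2.55 in AAV-hGRB and 3.10, 2.99, 3.03 and 3.40 in AAV-GFP. The PBS arrays spanned both, at 1.57, 3.47, 3.82 and 3.04. The mean was 2.70 ± 0.18 for AAV-hGRB, 3.13 ± 0.19 for AAV-GFP and 2.97 ± 0.99 for PBS (SD, n = 4 each).

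The change of Cd74 was -0.43 (SE 0.39, 95% interval -1.27 to 0.41) in AAV-hGRB against AAV-GFP, a ratio of 0.741, and it did not pass the threshold (limma, adjusted p = 0.998). The fit pools the spread of the 3 groups, of which that of PBS was the widest. The difference was -0.44 within slide 5 and -0.15 within slide 6. Against PBS the change was -0.28, and for AAV-GFP against PBS it was 0.16. AAV-hGRB against PBS had 0 of 8 genes without overlap, beside 4.59% of all probes tested (2.14% higher, 2.45% lower). AAV-GFP against PBS had 0 of 8, beside 0.94% (0.583% higher, 0.357% lower).

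Ciita, the transactivator, had the largest change of the 8 genes in the direction of higher AAV-hGRB, opposite in sign to that of Cd74. It stood at -1.55, -1.97, -1.82 and -2.35 in AAV-hGRB, at -2.55, -3.54, -2.04 and -2.32 in AAV-GFP, and at -3.85, -2.50, -1.90 and -2.54 in PBS. The AAV-hGRB arrays lay in the upper part of the range, but AAV-hGRB replicate 4 lay below AAV-GFP replicates 3 and 4 and PBS replicate 3. The change was 0.69 (1.61-fold, SE 0.41, 95% interval -0.21 to 1.59) against AAV-GFP, with an unadjusted limma p of 0.12 and an adjusted p of 0.998. Without AAV-GFP replicate 2 it was 0.38.

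Against PBS the change of Ciita was 0.78 (1.71-fold, 95% interval -0.12 to 1.68, limma adjusted p = 0.883). Without PBS replicate 1 it was 0.39. For AAV-GFP against PBS it was 0.08. AAV-hGRB minus AAV-GFP was 1.99 within slide 5 and 0.22 within slide 6, and AAV-hGRB minus PBS was 0.99 and 0.07 within the same slides. Both intervals include 0.

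**Figure D2:**
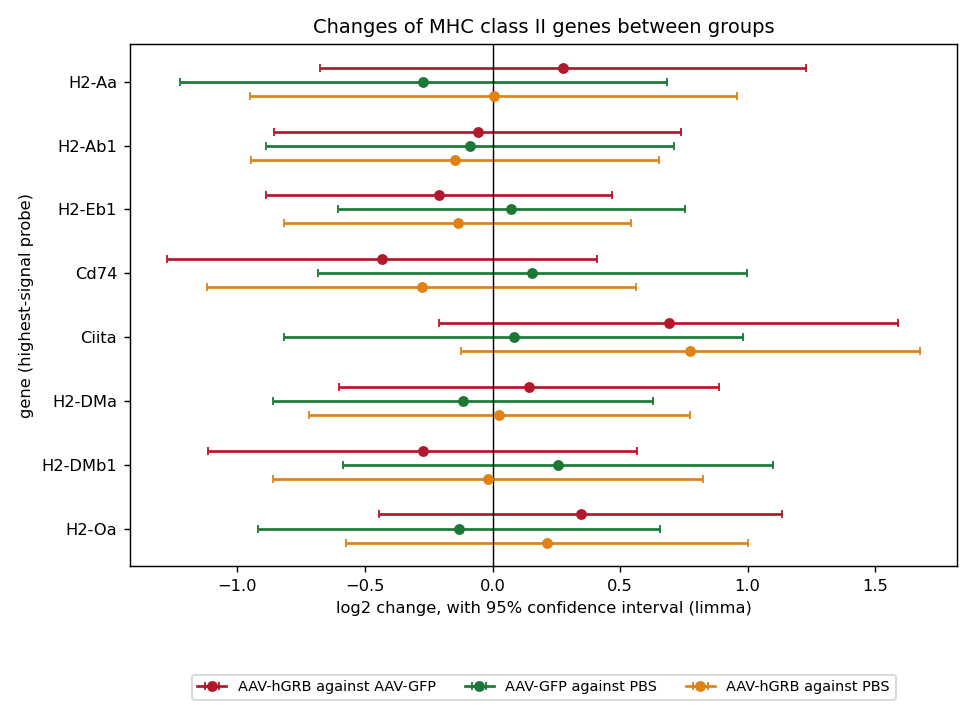
Log2 change (points) with its 95% confidence interval (bars, limma) for the brightest probe of each tested gene, AAV-hGRB against AAV-GFP in red, AAV-GFP against PBS in green and AAV-hGRB against PBS in orange. Every interval of the 8 genes in the 3 comparisons includes 0, Ciita lying farthest to the right with 0.69 and 0.78.

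H2-DMa and H2-DMb1 encode the 2 chains of the peptide exchanger H2-DM. H2-DMa stood at -2.32, -1.56, -1.11 and -1.66 in AAV-hGRB, at -1.87, -1.65, -2.60 and -1.12 in AAV-GFP and at -2.25, -1.29, -1.65 and -1.58 in PBS. H2-DMb1 stood at 1.16, 1.32, 1.54 and 0.90 in AAV-hGRB, at 0.94, 1.46, 1.81 and 1.80 in AAV-GFP and at -0.10, 1.73, 1.75 and 1.61 in PBS. AAV-GFP replicate 3 was the lowest of the 12 arrays for H2-DMa and the highest for H2-DMb1. AAV-hGRB against AAV-GFP gave 0.14 (SE 0.34) for H2-DMa and -0.27 (SE 0.39) for H2-DMb1, and AAV-hGRB against PBS gave 0.03 and -0.02. AAV-GFP against PBS gave -0.12 and 0.26.

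H2-Oa, the alpha chain of the H2-DM inhibitor H2-O, was read by 2 neighbouring probes that disagreed on 1 array. On probe A_51_P449325 (chr17:32174944-32175003, mm7) it stood at -2.81, -2.96, -2.34 and -2.96 in AAV-hGRB, at -3.03, -3.02, -2.58 and -3.83 in AAV-GFP and at -4.05, -2.92, -2.51 and -2.46 in PBS. On probe A_51_P449329 (chr17:32174875-32174935) the levels were -3.44, -3.25, -2.84 and -3.09 in AAV-hGRB, -3.11, -3.49, -3.23 and -4.30 in AAV-GFP and -2.00, -3.23, -3.02 and -2.93 in PBS. PBS replicate 1 was therefore the lowest of the 12 arrays on the first of these probes and the highest on the second.

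Between the virus groups both H2-Oa probes gave a positive change, 0.35 (SE 0.36) and 0.38 (SE 0.32), neither past the threshold. The first of these was 0.11 without AAV-GFP replicate 4. Against PBS they differed in sign, at 0.21 and -0.36 for AAV-hGRB and at -0.13 and -0.74 for AAV-GFP. The last of these was the 1 call at an unadjusted limma p of 0.05 among the 13 probes (unadjusted p = 0.0383, adjusted p = 0.999). Without PBS replicate 1 it was -0.47, with an unadjusted p of 0.129.

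H2-Ob, the other chain of H2-O, was well above background on 2 of 12 arrays, AAV-hGRB replicate 4 at -4.34 and PBS replicate 2 at -4.12. On the other 10 arrays its level has only an upper bound, and AAV-GFP had 0 of 4 arrays above background. It was not tested. The bound on its fold difference was below 1 in either direction in each comparison, so no fold is given.

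Between the lowest and the highest of the 12 arrays the levels differed from 2.80-fold for H2-DMa to 4.94-fold for Ciita among the 8 genes tested, and for H2-Ab1, H2-Eb1 and Cd74 both ends of the range were PBS arrays. On the other H2-Ab1 probes AAV-GFP replicate 3 was the lowest of the 12. Over the 12 arrays their SD ran from 0.42 for H2-Eb1 to 0.68 for Ciita, beside a median of 0.45 over all probes tested, and the genes lay between percentiles 45.7 and 78.8 of that spread. PBS replicate 1 was the lowest array for H2-Ab1, H2-Eb1, H2-DMb1, H2-Oa, Cd74 and Ciita among the tested genes. Its value for H2-Ob was also the lowest, but it was not well above background and so has no rank.

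Spot noise within an array was far smaller than those gaps. The H2-Ab1 probe A_51_P215237 is printed on 10 spots of each array. The SD between these spots was 0.04 to 0.07 on the log2 scale on 11 arrays and 0.16 on AAV-GFP replicate 3. Between the arrays of a group its SD was 0.55 for AAV-hGRB, 0.79 for AAV-GFP and 0.63 for PBS.

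The 4 probes of H2-Ab1 did not give 1 change. AAV-hGRB against AAV-GFP was -0.06 on the brightest probe, A_52_P683598, but 0.29 on A_51_P215237, 0.27 on A_51_P215242 and 0.80 on A_52_P570717. AAV-GFP against PBS was -0.09, -0.41, -0.53 and -0.58 in the same order, and AAV-hGRB against PBS was -0.15, -0.12, -0.26 and 0.23. AAV-GFP replicate 3 stood far below its group on the dimmer probes, at -0.86, -2.84 and -4.36, where the lowest other AAV-GFP array stood at 0.43, -1.15 and -2.10. Without it, AAV-hGRB against AAV-GFP was -0.28 on the brightest probe, -0.10 on A_51_P215237, -0.17 on A_51_P215242 and 0.22 on A_52_P570717. A_52_P570717 was not well above background on that array.

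The 3 H2-Ab1 probes whose place is given lie along 1 strand, and A_52_P683598 at chr17:32346939-32346998 is the one nearest the 3′ end. Each probe was set to its own mean over the 12 arrays. AAV-GFP replicate 3 then stood at -1.59 on A_51_P215242, which is 4336 bases upstream in the genome, at -1.39 on A_51_P215237, 1671 bases upstream, and at -0.67 on the last probe. PBS replicate 1 ran the other way, at -0.37, -0.57 and -1.06.

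Over 2843 other genes with 2 probes on 1 strand, the median level at the 3′ probe minus that at the 5′ probe, each set to its own mean, was lowest on PBS replicate 1 (-0.27) and highest on AAV-GFP replicate 3 (0.16). PBS replicate 3 was close to the highest, at 0.14, and was not among the arrays of lowest class II levels. Most of those lowest levels fell on PBS replicate 1 and AAV-GFP replicate 3. Correlations of this index with the 13 probes, 13 relations in all, did not pass the threshold after adjustment. The strongest was with H2-DMb1 (Pearson r = 0.74, permutation p = 0.00869, adjusted p = 0.113; Spearman rho = 0.54, permutation p = 0.0733, adjusted p = 0.548; n = 12). Without AAV-GFP replicate 3 and PBS replicate 1 its r was 0.28, so it rested on those arrays. The part of RNA quality in the levels was not tested further.

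**Figure D3:**
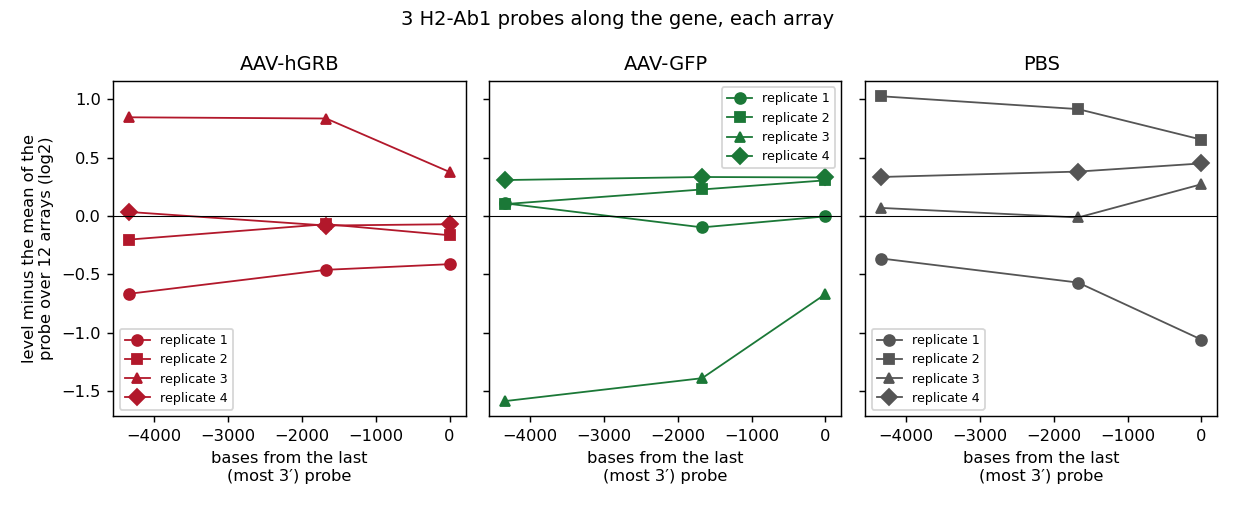
Level of 3 H2-Ab1 probes on each array minus the mean of that probe over the 12 arrays (log2), against the distance in bases from the probe nearest the 3′ end, in panels for AAV-hGRB, AAV-GFP and PBS. AAV-GFP replicate 3 climbs from -1.59 at the far probe to -0.67 at the last one, and PBS replicate 1 drops from -0.37 to -1.06.

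Over the 12 arrays all 28 pairs of the 8 tested genes had a positive Pearson r, between 0.05 and 0.95 with a median of 0.50. Taken as deviations from the group means, all 28 stayed positive. This rested in part on PBS replicate 1, without which 19 of the 28 pairs were positive with a median r of 0.20. After adjustment over the 28 pairs 7 passed the threshold. They joined 2 sets, H2-Aa with H2-Ab1 and H2-DMa, and Cd74 with H2-Eb1 and H2-DMb1, and Cd74 with H2-Ab1 linked the sets. Ciita passed with none of them. How often pairs of other probes do so was not worked out. The 3′ index above had r = 0.68 with Cd74, 0.64 with H2-Eb1 and 0.74 with H2-DMb1. With H2-Aa, H2-Ab1 and H2-DMa it had -0.08, 0.25 and -0.17, and none of these passed after adjustment. Without AAV-GFP replicate 3 and PBS replicate 1 they were 0.37, 0.17, 0.28, -0.43, -0.12 and -0.46 in that order. The part of the index in the 2 sets was not tested.

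In the first set H2-Aa and H2-DMa had r = 0.95 (permutation p = 3e-05, adjusted p = 0.00084) and rho = 0.94 (permutation p = 4e-05, adjusted p = 0.0007). H2-Aa and H2-Ab1 had r = 0.91 (permutation p = 7e-05, adjusted p = 0.00098) and rho = 0.93 (permutation p = 5e-05, adjusted p = 0.0007). H2-Ab1 and H2-DMa had r = 0.84 (permutation p = 0.00081, adjusted p = 0.00454) and rho = 0.79 (permutation p = 0.00329, adjusted p = 0.023). Leaving out AAV-GFP replicate 3 and PBS replicate 1, the 2 arrays farthest from the median, r was 0.91, 0.85 and 0.75 for these pairs, so this set did not rest on them.

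In the second set Cd74 and H2-Eb1 had r = 0.92 (permutation p = 0.00012, adjusted p = 0.00112) and rho = 0.84 (permutation p = 0.00131, adjusted p = 0.0122), and r = 0.87 without PBS replicates 1 and 2. H2-DMb1 and Cd74 had r = 0.87 (permutation p = 0.0006, adjusted p = 0.0042) and rho = 0.73 (permutation p = 0.00824, adjusted p = 0.0461). H2-Eb1 and H2-DMb1 had r = 0.83 (permutation p = 0.00234, adjusted p = 0.0109), but rho = 0.67 did not pass (permutation p = 0.0206, adjusted p = 0.0962). Without the farthest 2 arrays, one of which was PBS replicate 1 each time, these 2 pairs had r = 0.58 and 0.53, so they rested in part on that array.

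The pair that linked the sets, H2-Ab1 and Cd74, had r = 0.76 (permutation p = 0.00399, adjusted p = 0.016) and rho = 0.62, which did not pass (permutation p = 0.0344, adjusted p = 0.13), with r = 0.66 without AAV-GFP replicate 3 and PBS replicate 1. The nearest that Ciita came was r = 0.61 with H2-Oa (permutation p = 0.0297, adjusted p = 0.0832; rho = 0.62, permutation p = 0.0371, adjusted p = 0.13). Without PBS replicate 1 Ciita had r = -0.42 with H2-Ab1. No slide holds more than 3 arrays, so no correlation within a slide could be had.

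**Figure D4:**
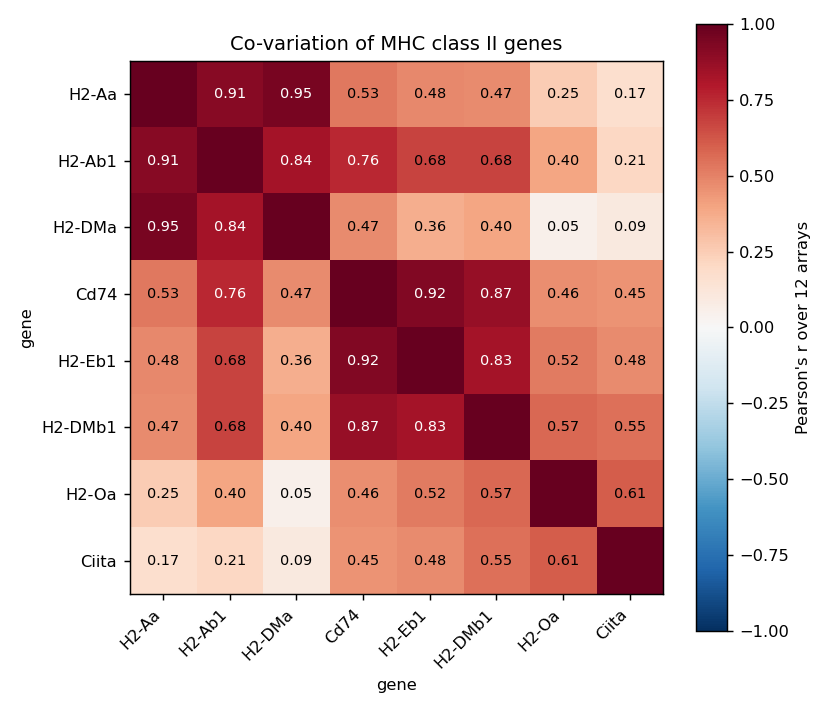
Pearson r between the levels of each pair of the 8 tested genes over 12 arrays, printed in each cell and coloured from -1 (blue) to 1 (red). The block of H2-Aa, H2-Ab1 and H2-DMa at the upper left (0.84 to 0.95) and the block of Cd74, H2-Eb1 and H2-DMb1 in the middle (0.83 to 0.92) stand out, and Ciita has 0.09 to 0.61 with the others.

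Genes outside the set were ranked by their correlation over the 12 arrays with the mean standardised level of H2-Aa, H2-Ab1, H2-Eb1 and Cd74. The 8 genes of highest r among 12635 compared were the kinase Rps6ka5 (0.83), H2-DMb2 (0.81), Csf1r (0.81), Ttc23 (0.80), Fcna (0.79), Folr2 (0.79), Uspl1 (0.78) and Daglb (0.78). H2-DMb2 is a further H2-DM beta chain, and its probe also lists the accession of H2-DMb1, so it can read both. Csf1r is the receptor for the macrophage growth factor CSF1 and one of the macrophage markers listed below, Fcna is a ficolin of macrophages, and Folr2 is a folate receptor of tissue macrophages. The lowest were Stmn4 (-0.81), Pcf11 (-0.79) and Usp28 (-0.78). Over all other tested probes the median r was 0.00, and 0.0451% exceeded 0.8. The arrays share their scaling and depth of signal, and without PBS replicate 1 the 8 highest had r of 0.40 to 0.68.

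The wider pathway was taken from a list of 30 genes that supply, control or accompany class II, of which 28 were tested. In AAV-hGRB against AAV-GFP 0 of 28 passed the threshold, 22 changes were positive where 43.5% of all probes tested were, and the median was 0.11. In AAV-GFP against PBS 0 of 28 passed, 16 were positive beside 50.6% of all probes, and the median was 0.03. In AAV-hGRB against PBS 0 of 28 passed, 20 were positive beside 42.8%, and the median was 0.17. H2-Ea and H2-Eb2 were well above background on 0 of 12 arrays.

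The positive count against AAV-GFP moved with the background correction. With normexp correction 17 of 28 were positive, where 58.3% of all probes were, and the median was 0.07. With quantile scaling 24 of 28 were positive with a median of 0.20, where 49.6% of all probes were. Against PBS the count without PBS replicate 1 was 15 of 28, with a median of 0.04, and with the slide as a block it was 13 of 28, with a median of -0.04. For AAV-GFP against PBS both settings gave 8 of 28. PBS replicate 1 is alone on slide 2, so the slide block also takes it out of the comparisons. The 2 settings are therefore not separate checks, and slide and array cannot be told apart for it. AAV-GFP replicate 4 is likewise alone on slide 4, and slide 3 holds only AAV-hGRB replicates 2 and 4.

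Among the partners of Ciita on class II promoters, Rfx5 of the X box complex stood at -3.54 ± 0.43 in AAV-hGRB, -4.10 ± 0.22 with AAV-GFP and -3.76 ± 0.36 with PBS (SD, n = 4 each), a change of 0.56 against AAV-GFP. Rfx5 was well above background on 4 of 4 AAV-hGRB arrays, but on only 2 AAV-GFP and 2 PBS arrays. Its partners Rfxap and Rfxank had 0.07 and -0.14. The NF-Y chains Nfya, Nfyb and Nfyc had 0.11, 0.09 and -0.19, and Creb1, a factor that also binds the X box, had 0.30. None of these passed, and the set had no common direction.

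Of the interferon gamma pathway, which is known to induce Ciita, the cytokine gene Ifng had a change of 0.26 against AAV-GFP. Its receptor chains Ifngr1 and Ifngr2 had 0.04 and 0.07, and the receptor kinases Jak1 and Jak2 had 0.07 and 0.20. The transcription factors Irf1 and Irf8 had 0.07 and 0.31, and the feedback inhibitor Socs1 had 0.39. These 8 changes were positive, and none passed the threshold.

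Ctss, the cathepsin that cuts the invariant chain, had 0.34 against AAV-GFP and 0.60 against PBS. Other endosomal enzymes had changes between -0.16 (Ctsb) and 0.24 (Ifi30, which reduces disulphide bonds of antigens) against AAV-GFP, with Ctsl at 0.03, Ctsd at -0.13 and Lgmn at 0.20. Marchf1, the ligase that removes class II from the surface, had 0.37 and Marchf8 -0.29. The T cell costimulators Cd86 and Cd40 had 0.24 and 0.18, whereas Cd80 had -0.96 and was well above background on 5 of 12 arrays.

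In bulk liver, fewer cells of a type and less RNA per cell cannot be told apart, and markers of the cells that could carry class II are given beside its levels. All 15 Kupffer cell and macrophage markers were tested. In AAV-hGRB against AAV-GFP 15 of 15 changes were positive with a median of 0.34. Against PBS 15 of 15 were positive with a median of 0.60, and 0 of 15 passed the threshold in either. Of all probes tested 43.5% were positive against AAV-GFP and 42.8% against PBS, and 50.6% in AAV-GFP against PBS. These shares stand beside the other lists too. The signs within a list are not independent, because its markers are read on the same arrays. Cd5l, a secreted macrophage protein, and Marco, a scavenger receptor, were named for their signal, with changes of 0.24 and 0.37 against AAV-GFP. The summed linear level of the list, in units of the array's 75th percentile, ran from 147 to 292 in AAV-hGRB, from 118 to 223 in AAV-GFP and from 60.7 to 202 in PBS.

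The lowest macrophage sum, 60.7, was on PBS replicate 1, the array that was lowest for most of the class II genes. With normexp 13 of 15 macrophage markers were positive against AAV-GFP with a median of 0.21, beside 58.3% of all probes. AAV-hGRB arrays lay higher than AAV-GFP arrays on average for the macrophage list. Of the class II genes H2-Aa, H2-DMa, H2-Oa and Ciita were also higher on average, and H2-Ab1, H2-Eb1, H2-DMb1 and Cd74 lower. For AAV-GFP against PBS 13 of 15 macrophage markers were positive with a median of 0.20, but 4 of 15 were with a median of -0.08 without PBS replicate 1, and 3 of 15 with the slide as a block. Without PBS replicate 1 AAV-hGRB against PBS had 15 of 15 positive with a median of 0.23, and with the slide as a block 13 of 15 with a median of 0.13. The slide block also takes out PBS replicate 1, which is alone on its slide. The part of macrophage content in the class II levels was not tested.

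Of 10 dendritic cell markers 8 were tested, and Cd209a and Siglech were well above background on 0 of 12 arrays. Against AAV-GFP 6 of 8 were positive with a median of 0.21, with Batf3 and Clec10a, named for their signal, at 0.14 and 0.28. Without AAV-GFP replicate 3 it was 8 of 8, with a median of 0.49. With normexp it was also 8 of 8, with a median of 0.23, where 58.3% of all probes were positive. Ccr7, among the 6 positive markers (0.94), was well above background on 4 AAV-hGRB, 1 AAV-GFP and 2 PBS arrays. The filter favours a positive change for such a marker. The summed level ran from 2.53 to 3.02 in AAV-hGRB, from 1.88 to 3.84 in AAV-GFP and from 1.65 to 2.75 in PBS. AAV-GFP replicate 3 held the highest sum, 3.84. Of the 8 class II genes tested this array was the lowest of the 12 for H2-Aa and H2-DMa, the highest for H2-DMb1 and at neither end for the other 5. On the dimmer probes of H2-Ab1 it was the lowest as well.

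Of 11 B cell markers 10 were tested, Pax5 being well above background on 3 arrays. Against AAV-GFP 7 of 10 were positive with a median of 0.33 (0.56 without AAV-GFP replicate 3), and Cd22, singled out after its values were seen, had groups that did not overlap (0.87), as 1.05% of all probes did in that direction. Cd22 was well above background on 3 of 4 AAV-GFP arrays. Fcrla, among the 7 positive markers (0.54), was well above background on 4 AAV-hGRB, 0 AAV-GFP and 1 PBS arrays. It was tested largely through the AAV-hGRB group, and the filter favours a positive change for such a marker. With normexp 10 of 10 B cell markers were positive against AAV-GFP with a median of 0.24, beside 58.3% of all probes. Cd79b and Blnk, named for their signal, had 0.33 and 0.42. The summed level ran from 3.46 to 6.11 in AAV-hGRB, from 2.76 to 5.22 in AAV-GFP and from 2.46 to 5.71 in PBS. The dendritic cell and B cell lists had 0 members past the threshold in each comparison, and their part in the class II levels was not tested.

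The other lists also had 0 members past the threshold. Of 10 T cell markers on the array 8 were tested, Cd28 and Cd8a being well above background on 0 and 3 arrays. Against AAV-GFP 5 of 8 tested T cell markers, 3 of 4 monocyte markers and 4 of 7 sinusoidal endothelial markers were positive. The medians were 0.07, 0.41 and 0.01. Without AAV-GFP replicate 3 these medians were 0.14, 1.05 and 0.06, with 4 of 4 monocyte markers positive, and with normexp the endothelial median was -0.10. Cd3g of the T cell list (0.53) and Lyve1 (0.72) and Kdr (0.53) of the endothelial list also had AAV-hGRB arrays that all lay above the AAV-GFP arrays. They were singled out after their values were seen, and 1.05% of all probes tested did the same. Cd3g was well above background on 3 of 4 AAV-GFP arrays. Changes of tested T cell markers ran from -0.87 (Cd247) to 0.59 (Lck), and those of endothelial markers from -0.26 (Stab2) to 0.72. The untested Cd8a lies outside these counts, and the 3 arrays that read it well above background were all AAV-hGRB arrays. Its mean level over that group was -3.48 (SD 1.13). The AAV-GFP mean was -5.14 and the PBS mean -4.66, each with 0 arrays above background, so the size of the gap was not determined.

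All 7 hepatocyte markers on the array were well above background on 12 of 12 arrays. Alb and Fgb stood at 10.53 and 10.06 in AAV-hGRB, 10.71 and 10.22 in AAV-GFP, and 10.52 and 10.19 in PBS, and 1 of 7 hepatocyte markers was positive against AAV-GFP with a median of -0.16. With quantile scaling the direction turned, to 5 of 7 with a median of 0.07, and with the slide as a block 3 of 7 were positive. Normexp gave 1 of 7 with a median of -0.35.

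**Figure D5:**
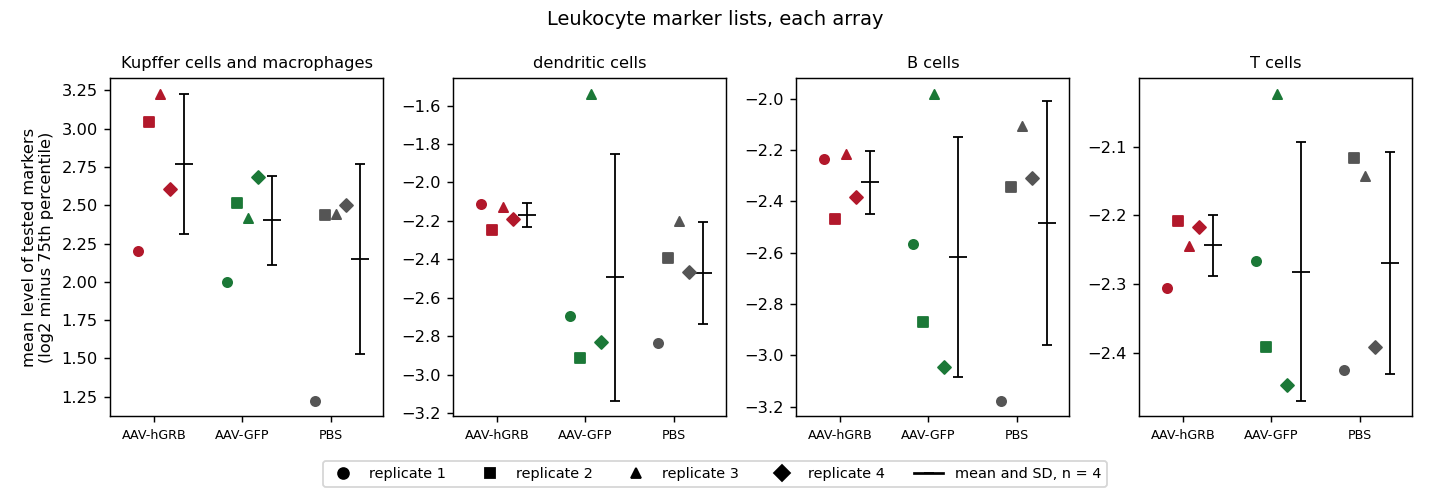
Mean log2 level of the tested markers of Kupffer cells and macrophages, dendritic cells, B cells and T cells on each array, with AAV-hGRB in red, AAV-GFP in green and PBS in grey and the mean with SD of 4 arrays beside the points. PBS replicate 1 is the lowest array for macrophage and B cell markers, and AAV-GFP replicate 3 is the highest for dendritic, B and T cell markers. AAV-GFP replicate 3 also had the lowest 75th percentile and the fewest probes well above background (22600). The part of this in its marker levels was not tested.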

How the data were processed

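The authors deposited scanner files holding the intensity of each spot, not log-transformed. Per the file headers, Feature Extraction 9.5.3.1 subtracted background from the deposited intensity values, and the submitters' processing notes name version 9.5. The labels' protocols give 500 ng of total RNA labelled with Cy3. The deposited table of intensity for the series equals the scanner values (largest relative difference 0), so it is linear and not centred.

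From these, log2 values were averaged over spots of 1 probe (spots marked as outliers were dropped unless the probe had no other) and scaled by subtracting the 75th percentile of each array. Control spots (1639) were dropped. limma 3.58.1 in R 4.3.3 fitted 12 arrays in 3 groups with 9 residual degrees of freedom, two-sided, with Benjamini-Hochberg adjustment over 26593 probes. Correlations used 100000 resamples. The number of arrays limits the precision. Names came through RefSeq (22951 probes by systematic name, 124 by another accession, 18099 kept the design name). Probe coordinates are mm7 per the file headers, promoter coordinates GRCm38.p6. The fit was tested on simulated data that kept the spread of each probe, with 100 probes changed at each fold. For AAV-hGRB against AAV-GFP it found 18.3% of 2-fold and 68% of 4-fold changes, with 4.7 false calls per draw. A 2-fold change of a class II gene could therefore be missed. Slides were read from the headers as the array barcode's slide, and 1 slide was scanned on another day.

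The genes, the pathway list and the marker lists were chosen with earlier results of these data known. All 9 genes are named with every probe, the pathway list with its roles (1 gene of it and 1 searched motif are not reported here), the brightest markers of a list, and the 8 most and 3 least correlated genes. Alternatives were normexp with offset 50, quantile and median scaling, no filter or 8 arrays in the filter, slide or replicate number as a block, and each array left out. Counts of the lists under these settings, the co-variation without single arrays, the 3′ index and the promoter pair were added after seeing the data.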

Additional observations from a re-analysis of the deposited data

Results flagged for a closer look

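Dixon's test was run on the 4 arrays of each group for the 14 probes, 42 groups in all. These groups share arrays and are not independent, and chance gives about 1 in 20 groups. In 3 of them an array stood apart. On 2 H2-Ab1 probes, which share 31 bases, it was AAV-GFP replicate 3, at -2.84 on A_51_P215242, where the other AAV-GFP arrays lay between -1.15 and -0.94, and at -4.36 on A_52_P570717, where they lay between -2.10 and -1.94. For H2-DMb1 it was PBS replicate 1 at -0.10, where the other PBS arrays lay between 1.61 and 1.75.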

How the results depend on the processing

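The count of probes past the threshold was 0 in each comparison, for all probes and for the 13 class II probes, under each alternative run. The lowest adjusted p of any class II probe with 1 array left out was 0.661 between AAV-hGRB and AAV-GFP, 0.629 between AAV-hGRB and PBS and 0.842 between AAV-GFP and PBS. Normexp moved the median change of all probes for AAV-hGRB against PBS to 0.05, against -0.06 with the scanner's own background correction. Signs of uncalled changes turned as follows, and the cause was not tested. For AAV-hGRB against AAV-GFP, H2-Ab1 was 0.014 with quantile scaling, 0.18 with the slide as a block and 0.29, 0.27 and 0.80 on its other probes. For AAV-GFP against PBS the slide block gave -0.26 for H2-Eb1, -0.29 for H2-DMb1, -0.40 for Cd74 and -0.40 for Ciita, and normexp gave 0.029 for H2-DMa. The slide block also leaves out PBS replicate 1, which is alone on its slide. For AAV-hGRB against PBS the slide block gave -0.055 for H2-Aa, -0.11 for H2-DMa and -0.060 for H2-Oa. There normexp gave -0.015 for H2-Aa, quantile and median scaling gave 0.0077 and 0.036 for H2-DMb1, and other probes gave 0.23 for H2-Ab1 and -0.36 for H2-Oa.

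Leaving out each array in turn, AAV-hGRB against AAV-GFP ranged from -0.045 to 0.50 for H2-Aa, -0.28 to 0.056 for H2-Ab1 and -0.12 to 0.37 for H2-DMa. It stayed negative for H2-Eb1 (-0.27 to -0.17), H2-DMb1 (-0.46 to -0.16) and Cd74 (-0.50 to -0.34) and positive for H2-Oa (0.11 to 0.52) and Ciita (0.38 to 0.88). AAV-GFP against PBS ranged from -0.60 to 0.050 for H2-Aa, -0.47 to 0.13 for H2-Ab1, -0.28 to 0.30 for H2-Eb1, -0.35 to 0.15 for H2-DMa, -0.19 to 0.44 for H2-DMb1, -0.49 to 0.11 for H2-Oa, -0.31 to 0.44 for Cd74 and -0.30 to 0.39 for Ciita. AAV-hGRB against PBS ranged from -0.32 to 0.26 for H2-Aa, -0.53 to 0.045 for H2-Ab1, -0.49 to 0.095 for H2-Eb1, -0.16 to 0.25 for H2-DMa, -0.47 to 0.15 for H2-DMb1, -0.14 to 0.39 for H2-Oa and -0.75 to 0.0029 for Cd74, and stayed positive for Ciita, from 0.39 to 1.04. Positive pairs numbered 26 of 28 with normexp, 28 with quantile or median scaling and on deviations from the group means, and 19 to 28 with 1 array left out.

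Samples of the same number had correlated deviations between -0.43 and 0.59. This range cannot show whether the numbers pair samples, and the labels do not say, so the main fit used no pairing. With the replicate block 0 probes passed in each comparison, and not every array correlated best with its own number. With 4 arrays per group the median SE of a change over all probes tested was 0.31, and signal over background kept H2-Ob from being tested.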
